A study of Mus musculus with 4 samples.

Results

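The genes described here write, read and maintain histone H3 lysine 9 (H3K9) methylation and heterochromatin. They were taken by name from the gene table of 2-cell mouse embryos, and all 10 (Ehmt1, Ehmt2, Setdb1, Suv39h1, Suv39h2, Trim28, Cbx1, Cbx3, Cbx5 and Atrx) were found among its 30049 Ensembl genes. The embryos were wild type and came from matings of BDF1 mice, hybrids of C57BL/6 and DBA/2. Zygotes taken 18 h after hCG, the hormone that triggers ovulation, were kept in KSOM embryo medium for 24 h. The control medium had no addition, and the other held 2% dimethyl sulfoxide (DMSO), a common drug solvent. The labels give 50 embryos for each group, collected at the 2-cell stage, and 2 libraries per group, called control 1 and 2 and DMSO 1 and 2 here. Whether a library held all 50 or a part of them, and whether the 2 libraries of a group came from separate cultures, is not given in the sources used here, so that the p-values measure only the spread between these libraries. Values are in TPM, a unit of transcript level that accounts for transcript length, so that levels can be set side by side between genes. The deposited values summed to 768174 and 780527 TPM in control 1 and 2 and to 772487 and 799166 TPM in DMSO 1 and 2, and they were tested without rescaling. TPM values keep no depth, and the read tracks were not used here, so no depth and no counting interval is given.

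Methylation of H3K9 marks silent chromatin. Suv39h1 and Suv39h2 are paralogous enzymes that trimethylate H3K9 at pericentromeric repeats, Setdb1 does so mainly at retrotransposons, and Ehmt2 (G9a) and Ehmt1 (GLP) work as a dimer that dimethylates H3K9 in euchromatin. The heterochromatin protein 1 (HP1) paralogs Cbx5 (HP1 alpha), Cbx1 (HP1 beta) and Cbx3 (HP1 gamma) bind the methylated lysine through a chromodomain and bind partner proteins through a chromoshadow domain. Trim28 (KAP1) is the corepressor that KRAB zinc finger proteins use to bring Setdb1 and HP1 to DNA, and Atrx is a chromatin remodeler that deposits the histone variant H3.3 in heterochromatin. In the mouse zygote the maternal and paternal genomes start with unequal H3K9 methylation, and heterochromatin is rebuilt over the first cleavages.

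In DMSO-treated embryos Cbx1 RNA was up-regulated, with a mean 2.81 times that of control embryos (59.7 ± 11.8 against 21.2 ± 2.51 TPM, SD, n = 2 each). This call was lost under 4 of 11 alternative settings. The Cbx1 paralogs Cbx3 and Cbx5 stood at 0.589 and 0.536 of their control means without passing the threshold. Ehmt1 RNA was down-regulated to 0.44 of its control mean, a call lost under 9 of 11 alternative settings, and Ehmt2 stood at 0.401 without passing the threshold. Of the SUV39H enzymes, Suv39h2 stood higher in both DMSO libraries while the values of Suv39h1 overlapped between the groups. All 10 genes had a mean of at least 1 TPM and entered the limma test, which moderates each gene's variance by that of the others, on log2(TPM + 1) over 12038 genes. limma called 1 of them higher and 1 lower at a Benjamini-Hochberg adjusted p-value under 0.05. Among all genes tested, 6.42% were called higher and 14.1% lower, or 20.5% in either direction, so the share of calls among the 10 genes was near the background. The number called over all genes, 2470, fell to 3 without control 1 or control 2 and to 15 without DMSO 1. An unadjusted p-value under 0.05 was reached by 7 of the 10 genes, 5 lower and 2 higher, and by 40.2% of all genes, 24.3% lower and 15.8% higher. With quantile normalization 49.0% of all calls were higher, against 31.3% on the deposited values. The groups did not overlap for 9 of the 10 genes, 7 of them lower and 2 higher in DMSO-treated embryos, and for 69.8% of all genes tested, 38.7% lower and 31.1% higher. The median log2 fold change was -0.57 over the 10 genes and -0.09 over all genes tested, or -0.35 and 0.0052 with quantile normalization. The values of the 10 genes ran from -1.25 to 1.44. The added 1 TPM makes the fold changes of low genes smaller than the ratios of their values. In bulk samples, fewer cells of a type and less RNA per cell cannot be told apart.

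The labelled stage was checked with 10 oocyte and 2-cell markers. Of the oocyte genes, Nlrp5 was at 0.14 TPM at most and Zp3 at 2.35 TPM at most. Gdf9 was at 70.4 and 41.4 TPM in control embryos against 123 and 89.2 TPM in DMSO-treated embryos. Bmp15 was at 102 and 56.0 TPM against 544 and 285 TPM. Oosp1, the most abundant of the list, was at 877 and 576 TPM against 2086 and 1763 TPM. The 2-cell genes Zfp352 and Tcstv1 were at 89.0 TPM or more in every library. Of the others, Zscan4c was at 33.3 to 77.3 TPM, Tdpoz4 at 5.74 to 19.4 TPM and Zscan4d at 7.12 to 9.24 TPM over the 4 libraries, the last 2 with overlapping groups. The sum of the list, though not each of its genes, was higher in both DMSO libraries. The 10 genes together were at 1416 and 916 TPM in control embryos against 3978 and 2961 TPM in DMSO-treated embryos, or at 539 and 340 against 1892 and 1198 TPM without Oosp1. limma called 4 of the 9 tested higher (Bmp15, Oosp1, Zfp352 and Tcstv1) and 0 lower, against 6.42% and 14.1% of all genes tested. At an unadjusted limma p-value under 0.05, 6 were higher and 0 lower, against 15.8% and 24.3% of all genes. The other 5 markers tested were not called, and Zp3 stood lower in DMSO-treated embryos. The part of these markers in the values of the H3K9 genes was not tested. Of 13 markers of cumulus and granulosa cells, which surround the egg, 12 were below 2 TPM in all libraries. The exception was Amhr2, at 36.8 and 29.6 TPM in control embryos against 8.29 and 16.5 TPM in DMSO-treated embryos (log2 fold change -1.42, limma adjusted p = 0.0442). The other 12 summed to 3.48 and 2.32 TPM in control embryos against 3.01 and 3.35 TPM in DMSO-treated embryos, with Inhba at 0 in all. The share of all TPM held by the 20 most abundant genes also moved with the groups, from 22.1% and 23.6% in the control libraries to 29.4% and 35.1% in DMSO-treated embryos, and its part was not tested.

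The coding sequences of the HP1 paralogs are shown first because Cbx1 was called higher while Cbx3 and Cbx5, which were not called, stood lower in both DMSO libraries, and because the authors' counting by kallisto assigns reads by matching words of 31 bases. The stretch below is the 90 bases of the Cbx5 coding sequence, in frame, that Cbx1 and Cbx3 together matched best without gaps (GENCODE M21, on GRCm38). It lies in the C-terminal part of the coding sequence, from base 394 to 483 in Cbx1 and from base 406 to 495 in Cbx3 and Cbx5. In each gene it spans the junction of a pair of exons. On chromosome 11 the Cbx1 stretch takes up 96802803 to 96802822 and 96806616 to 96806685 (plus strand), on chromosome 6 that of Cbx3 takes up 51481799 to 51481818 and 51482480 to 51482549 (plus strand), and on chromosome 15 that of Cbx5 takes up 103199722 to 103199791 and 103200801 to 103200820 (minus strand). Capitals mark the positions at which the 3 genes are not all the same.
Cbx1: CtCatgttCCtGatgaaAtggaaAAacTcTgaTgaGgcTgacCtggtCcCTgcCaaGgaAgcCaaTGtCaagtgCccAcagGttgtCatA
Cbx3: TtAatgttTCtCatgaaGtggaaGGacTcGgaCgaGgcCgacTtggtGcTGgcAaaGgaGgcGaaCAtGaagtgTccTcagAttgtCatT
Cbx5: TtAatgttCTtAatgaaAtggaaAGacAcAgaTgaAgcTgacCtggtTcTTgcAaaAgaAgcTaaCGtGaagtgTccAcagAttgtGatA
Of the 90 bases 61 were identical in all 3 genes, 72 between Cbx1 and Cbx5, 70 between Cbx3 and Cbx5, and 66 between Cbx1 and Cbx3. The longest run of identical bases in their whole coding sequences was 20 bases between Cbx1 and Cbx5, 14 between Cbx3 and Cbx5, and 11 between Cbx1 and Cbx3. No 31-base word was shared between the annotated transcripts of any pair of the 3, counted on either strand. The same holds for Suv39h1 with Suv39h2 and for Ehmt1 with Ehmt2. The words were counted on GENCODE M21, which may differ from the Ensembl release the authors used, and the part of shared words in the deposited values was not tested.

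Cbx1 (ENSMUSG00000018666, chromosome 11 from 96789127 to 96808640, plus strand) encodes HP1 beta. It was listed at 23.0 and 19.4 TPM in control 1 and 2 and at 68.0 and 51.3 TPM in DMSO 1 and 2. Each DMSO library was at least 2.23 times the higher control library. In both groups library 1 was the higher. Its log2 fold change was 1.44 (standard error 0.29, 95% confidence interval 0.75 to 2.13, limma adjusted p = 0.0256). The call was lost without the filter on low values (limma adjusted p = 0.102) and without control 1, control 2 or DMSO 1 (between 0.0751 and 0.172), and the log2 fold change stayed between 1.24 and 1.67 in every alternative run.

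Cbx3 (ENSMUSG00000029836, chromosome 6 from 51470360 to 51483704, plus strand), the most abundant of the HP1 genes, encodes HP1 gamma. It was at 155 and 139 TPM in control embryos against 88.3 and 84.9 TPM in DMSO-treated embryos. The groups did not overlap, and each group's libraries lay close to one another. The log2 fold change was -0.76 (standard error 0.24, 95% confidence interval -1.34 to -0.17), which did not pass the threshold (limma adjusted p = 0.0696), and -0.48 with quantile normalization. Of the 31-base words of Cbx3 transcripts 10.0% also occur in other genes, the most, 8.08%, in the processed pseudogene Cbx3-ps6. This pseudogene was listed at 2.15 and 0.337 TPM in control embryos against 13.3 and 5.94 TPM in DMSO-treated embryos. Summed with it, Cbx3 was at 157 and 139 TPM against 102 and 90.8 TPM, and its log2 fold change became -0.62 (limma adjusted p = 0.114).

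Cbx5 (ENSMUSG00000009575, chromosome 15 from 103191544 to 103239816, minus strand) encodes HP1 alpha. Its values were 71.1 and 61.1 TPM in control embryos against 33.2 and 37.6 TPM in DMSO-treated embryos. Again the groups stood apart, and the log2 fold change was -0.88 (standard error 0.26, 95% confidence interval -1.51 to -0.25, limma adjusted p = 0.0573). With a filter at a mean of 5 TPM it was called (limma adjusted p = 0.0425). It was not called with no filter (0.115), no variance trend (0.0799), median-ratio scaling (0.0619) or quantile normalization (0.127). The log2 fold change was -0.61 with quantile normalization and ran from -0.99 to -0.77 without any one library.

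**Figure D1:**
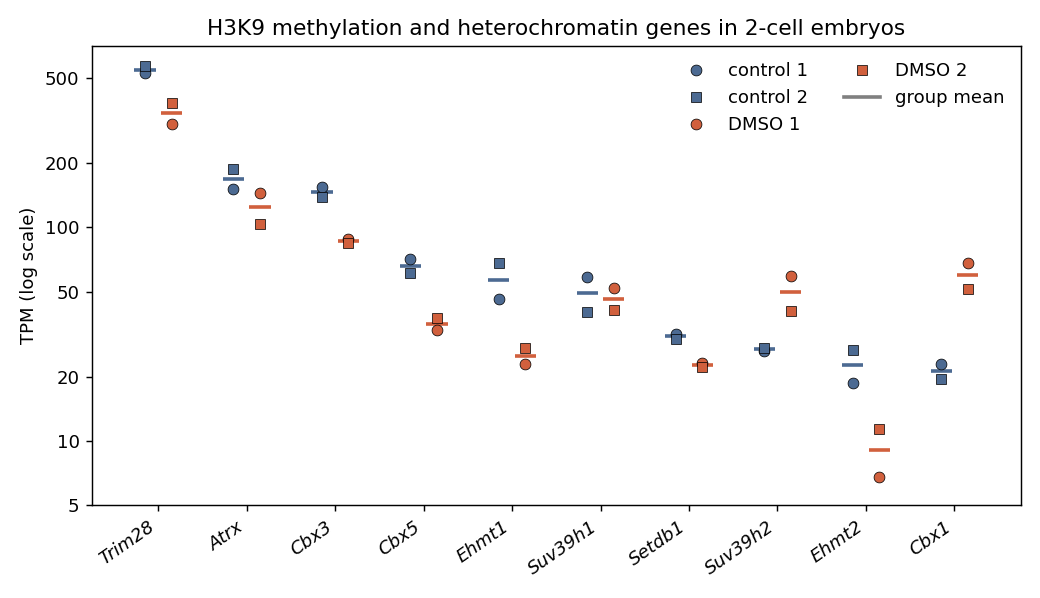
TPM of the 10 genes on a log axis, ordered by their mean in control embryos. Circles are replicate 1, squares replicate 2, blue control, orange DMSO, and bars group means. Cbx1 is the lowest of the 10 in control embryos (21.2 TPM) and the fourth highest in DMSO-treated embryos (59.7 TPM), while Suv39h1 is the gene whose groups overlap.

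Summed over the 3 HP1 genes, RNA was at 249 and 220 TPM in control embryos against 190 and 174 TPM in DMSO-treated embryos. Within these sums the make-up differed between the groups. Cbx1 held 9.22% and 8.86% of the HP1 sum in control embryos against 35.9% and 29.5% in DMSO-treated embryos. Cbx3 held 62.3% and 63.3% against 46.6% and 48.8%, and Cbx5 28.5% and 27.8% against 17.5% and 21.7%. A log2 ratio taken within a library, with 1 TPM added to each value, depends little on the scaling between libraries. The log2 ratio of Cbx1 to Cbx5 was -1.59 and -1.60 in control embryos against 1.01 and 0.44 in DMSO-treated embryos, a difference of 2.32. The 2 groups did not overlap, but the exact two-sided permutation test cannot go below p = 0.333 with 2 libraries against 2, which is the value it gave. The log2 ratio of Cbx3 to Cbx5 was 1.12 and 1.17 in control embryos against 1.38 and 1.15 in DMSO-treated embryos, and its groups overlapped (difference 0.12, exact permutation p = 0.667). This difference was 0.0080 without DMSO 1 and 0.24 without DMSO 2. These are 2 of 4 ratios compared, and no adjustment for 4 tests can bring a p-value of this design under the threshold.

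**Figure D2:**
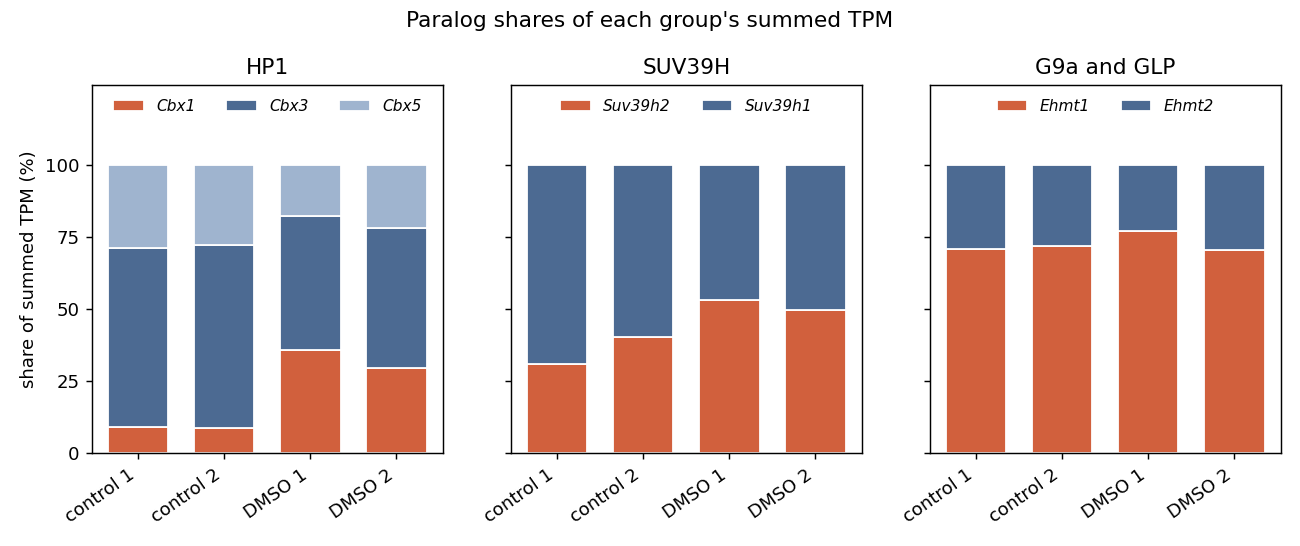
Share of each paralog in the summed TPM of its group (vertical axis, percent), for each library. The Cbx1 part of HP1 is about 9% in both control libraries and 29.5% to 35.9% in DMSO-treated embryos, the Suv39h2 part of SUV39H is larger in DMSO-treated embryos, and the Ehmt1 part stays between 70.5% and 77.1%.

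The stretches of 250 bases before an annotated start of Cbx1 and of Cbx5 are shown because Cbx1 was called higher and Cbx5, which was not called, stood lower in both DMSO libraries. Cbx5 has 2 starts in RefSeq, and the one nearer the 5′ end of the gene is printed. They come from RefSeq on GRCm38.p6, and each is printed 5′ to 3′ on its gene's strand. Capitals mark the GC box GGGCGG and the CCAAT box CCAAT, searched on both strands as was the TATA box TATAAA, which neither holds. The Cbx1 stretch is chr11:96788885-96789134 (plus strand) and the Cbx5 stretch chr15:103239853-103240102 (minus strand).
Cbx1: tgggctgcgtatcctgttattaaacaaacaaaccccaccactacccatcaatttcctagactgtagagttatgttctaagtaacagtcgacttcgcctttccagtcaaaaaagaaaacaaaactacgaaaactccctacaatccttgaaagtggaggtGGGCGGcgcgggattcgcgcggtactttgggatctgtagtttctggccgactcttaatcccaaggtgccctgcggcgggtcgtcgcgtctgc
Cbx5: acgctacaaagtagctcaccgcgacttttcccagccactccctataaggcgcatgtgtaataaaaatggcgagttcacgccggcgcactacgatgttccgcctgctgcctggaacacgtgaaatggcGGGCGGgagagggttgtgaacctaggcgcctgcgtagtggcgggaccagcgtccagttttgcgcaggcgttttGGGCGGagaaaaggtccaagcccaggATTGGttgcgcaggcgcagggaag
The Cbx1 stretch holds 1 GC box and 16 CpG dinucleotides, and the Cbx5 stretch printed 2 GC boxes, 1 CCAAT box and 22 CpG. The stretch before the other Cbx5 start (chr15:103215353-103215602, minus strand) holds 1 GC box, 0 CCAAT boxes and 7 CpG, so the 2 Cbx5 starts differ from each other in these counts as well. Over 32851 such stretches of all genes, 32.7% hold a GC box, 33.8% a CCAAT box and 12.4% a TATA box, and the median number of CpG is 6. A match is a description of these letters, and binding was not measured in these libraries.

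Ehmt1 (ENSMUSG00000036893, chromosome 2 from 24789928 to 24919614, minus strand) was at 46.1 and 67.8 TPM in control embryos against 22.9 and 27.1 TPM in DMSO-treated embryos. Both DMSO libraries lay below both control libraries, which differed from each other more than the DMSO libraries did. The ratio of the group means was 0.44, and the log2 fold change was -1.13 (standard error 0.30, 95% confidence interval -1.86 to -0.41, limma adjusted p = 0.0449). This value is close to the threshold, and the call was lost under 9 of the 11 alternatives run, among them median-ratio scaling (limma adjusted p = 0.0649) and quantile normalization (0.0846), while the log2 fold change stayed between -1.41 and -0.86. Ehmt2 (ENSMUSG00000013787, chromosome 17 from 34898469 to 34914052, plus strand), the partner of Ehmt1 in the dimer, was at 18.8 and 26.5 TPM in control embryos against 6.82 and 11.4 TPM in DMSO-treated embryos. The groups stood apart here as well, with a log2 fold change of -1.25 (standard error 0.36, 95% confidence interval -2.10 to -0.39, limma adjusted p = 0.0525). It was called with a filter at a mean of 5 TPM (limma adjusted p = 0.0383). It was not called with no filter (0.144), no variance trend (0.0601), median-ratio scaling (0.0718) or quantile normalization (0.0806). Its log2 fold change ran from -1.58 without DMSO 2 to -0.92 without DMSO 1. Ehmt2 was the lowest of the 10 genes in DMSO-treated embryos. The log2 ratio of Ehmt1 to Ehmt2 was 1.25 and 1.32 in control embryos against 1.61 and 1.19 in DMSO-treated embryos, and the groups overlapped (difference 0.11, exact permutation p = 1). The difference turned to -0.10 without DMSO 1. Summed over the pair, RNA was at 64.9 and 94.3 TPM in control embryos against 29.7 and 38.5 TPM in DMSO-treated embryos.

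Suv39h2 (ENSMUSG00000026646, chromosome 2 from 3455815 to 3475031, minus strand) was at 26.4 and 27.4 TPM in control embryos against 58.9 and 40.6 TPM in DMSO-treated embryos. The control libraries were nearly equal, and DMSO 1 stood well above DMSO 2. The log2 fold change was 0.84 (standard error 0.29, 95% confidence interval 0.14 to 1.55), which did not pass the threshold (limma adjusted p = 0.0835). It passed with quantile normalization (0.0455), and not with no filter (0.160), no variance trend (0.105) or median-ratio scaling (0.0713). The log2 fold change ran from 0.58 without DMSO 1 to 1.10 without DMSO 2. Suv39h1 (ENSMUSG00000039231, chromosome X from 8061171 to 8074760, minus strand) was at 58.5 and 40.3 TPM in control embryos against 51.7 and 41.0 TPM in DMSO-treated embryos. In both groups library 1 was the higher, and the groups overlapped. Its log2 fold change was -0.08 (95% confidence interval -0.80 to 0.65, limma adjusted p = 0.864), and the sign was the opposite with quantile normalization (0.21). Suv39h1 held 69.0% and 59.6% of the sum of the pair in control embryos against 46.8% and 50.3% in DMSO-treated embryos. The log2 ratio of Suv39h1 to Suv39h2 was 1.12 and 0.54 in control embryos against -0.18 and 0.02 in DMSO-treated embryos, a difference of -0.92 without overlap (exact permutation p = 0.333, the smallest that 2 against 2 can give). Of the 31-base words of Suv39h1 14.4% occur in other genes, against 6.85% for Suv39h2.

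**Figure D3:**
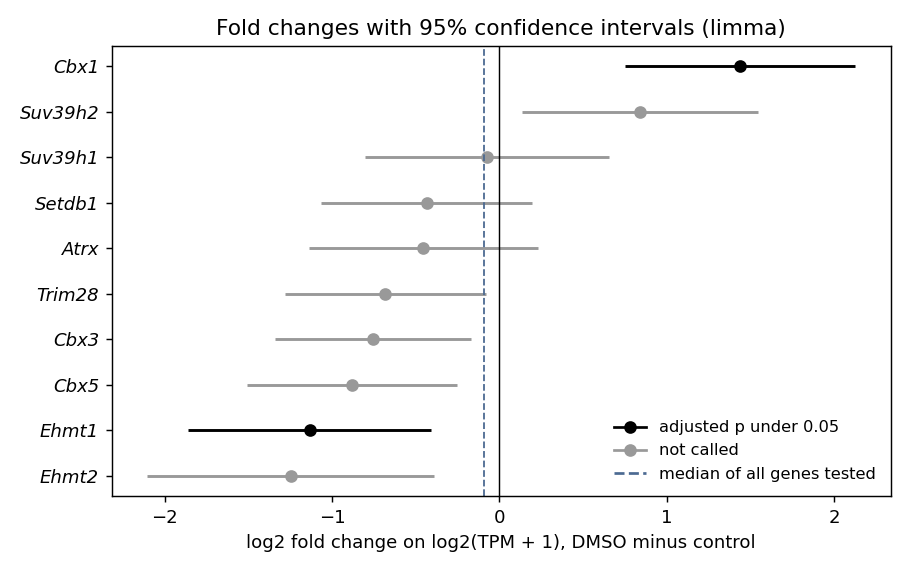
log2 fold change on log2(TPM + 1) of each gene, DMSO minus control, with its 95% confidence interval from limma. Black marks the 2 genes that limma called, Cbx1 (1.44) and Ehmt1 (-1.13), and the dashed line is the median of all genes tested (-0.09).

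Setdb1 (ENSMUSG00000015697, chromosome 3 from 95323525 to 95357202, minus strand) and Trim28 (ENSMUSG00000005566, chromosome 7 from 12999114 to 13031035, plus strand) act in the same silencing pathway. Trim28 had the highest level of the 10 genes in every library, with 525 and 566 TPM in control embryos against 304 and 381 TPM in DMSO-treated embryos. The groups did not overlap, and the log2 fold change was -0.68 (95% confidence interval -1.28 to -0.08, limma adjusted p = 0.0934). Setdb1 was at 31.7 and 30.1 TPM in control embryos against 23.1 and 22.2 TPM in DMSO-treated embryos. The libraries of a group lay close together, and the log2 fold change was -0.43 (95% confidence interval -1.07 to 0.20, limma adjusted p = 0.252). Of its 31-base words 12.9% occur in other genes. Atrx (ENSMUSG00000031229, chromosome X from 105797615 to 105929403, minus strand) was at 151 and 187 TPM in control embryos against 145 and 103 TPM in DMSO-treated embryos. DMSO 1 lay just below control 1, and the log2 fold change was -0.45 (95% confidence interval -1.14 to 0.23, limma adjusted p = 0.265). Its log2 fold change ran from -0.70 without DMSO 1 to -0.21 without DMSO 2, and was -0.30 without control 2. With quantile normalization the log2 fold change was -0.17 for Atrx, -0.24 for Setdb1 and -0.47 for Trim28. For these 3 genes the test does not show that the levels were alike, and the intervals allow falls of more than 1 on the log2 scale. The interval of Trim28 held only negative values, while those of Setdb1 and Atrx reached positive values.

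By level in control embryos the order was Trim28, Atrx, Cbx3, Cbx5, Ehmt1, Suv39h1, Setdb1, Suv39h2, Ehmt2 and Cbx1, from 546 to 21.2 TPM. Of the neighbours in this order, Atrx and Cbx3, Cbx5 and Ehmt1, Ehmt1 and Suv39h1, Suv39h2 and Ehmt2, and Ehmt2 and Cbx1 had overlapping libraries. In DMSO-treated embryos the order was Trim28, Atrx, Cbx3, Cbx1, Suv39h2, Suv39h1, Cbx5, Ehmt1, Setdb1 and Ehmt2, from 342 to 9.09 TPM, and there the neighbours Cbx1 and Suv39h2, Suv39h2 and Suv39h1, and Ehmt1 and Setdb1 overlapped. Trim28, Atrx and Cbx3 held the first 3 places in both groups.

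Other genes of the same pathways were taken from 4 lists written by name, 41 genes in all, of which 38 reached a mean of 1 TPM and were tested. The other 3 were Zfp445, listed at 0 in every library, Prdm16 and Kdm4d. Of the 38, limma called 6 lower and 1 higher, against 14.1% and 6.42% of all genes tested. Their median log2 fold change was -0.32. None of these 7 calls held without the filter on low values or without control 1, control 2 or DMSO 1, and 3 (Pphln1, Zfp644 and Kdm3b) held without DMSO 2.

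Among 13 cofactors of the methyltransferases, Trim28 and Atrx, 12 were tested. Of these 4 were called lower and 0 higher, against 14.1% and 6.42% of all genes tested. At an unadjusted limma p-value under 0.05, 5 were lower and 0 higher, against 24.3% and 15.8% of all genes. The median log2 fold change of the 12 was -0.65. Pphln1 and Fam208a (TASOR) are subunits of the HUSH complex, which works with Setdb1 to silence retrotransposons. Pphln1 fell from 56.6 and 54.6 TPM to 12.4 and 15.6 TPM (log2 fold change -1.92 with a standard error of 0.28, limma adjusted p = 0.0181). Fam208a fell from 33.6 and 37.4 TPM to 16.1 and 17.1 TPM (log2 fold change -1.05, limma adjusted p = 0.0408), and 13.4% of its 31-base words occur in other genes. Its call was lost with quantile normalization (0.0678), median-ratio scaling (0.0508) and no variance trend (0.0530). Mphosph8, the chromodomain subunit of HUSH, was at 81.0 and 72.6 TPM in control embryos against 69.5 and 55.2 TPM in DMSO-treated embryos, without overlap and without a call (limma adjusted p = 0.415). Zfp644, a zinc finger partner of Ehmt1 and Ehmt2, fell from 59.4 and 82.4 TPM to 23.2 and 14.7 TPM (log2 fold change -1.86 with a standard error of 0.34, limma adjusted p = 0.0221). Wiz, the other zinc finger partner of the dimer, was low, at 2.62 and 6.33 TPM against 1.88 and 3.19 TPM, and its groups overlapped. Zfp568, a KRAB zinc finger protein that recruits Trim28, fell from 14.4 and 16.5 TPM to 6.64 and 7.10 TPM (log2 fold change -1.06, limma adjusted p = 0.0487). That call was lost under the same 3 settings (0.0634, 0.0570 and 0.0529). Daxx, the histone chaperone that works with Atrx, was at 53.7 and 31.4 TPM in control embryos against 39.5 and 32.8 TPM in DMSO-treated embryos, with overlap.

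Of 4 other H3K9 methyltransferases of the SETDB and PRDM families 3 were tested. Mecom (PRDM3) rose from 11.3 and 7.62 TPM to 20.7 and 22.8 TPM (log2 fold change 1.15 with a standard error of 0.31, limma adjusted p = 0.0471), and the call was lost with a pseudocount of 0.1 (0.0521) and in the fit without a variance trend (0.0552). Setdb2 was at 93.9 and 85.1 TPM against 63.5 and 66.9 TPM (limma adjusted p = 0.214), and Prdm2 at 16.7 and 12.8 TPM against 18.5 and 13.8 TPM, with overlap. In every library the level of Setdb2 was above that of Setdb1.

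Of 11 H3K9 demethylases, the enzymes that remove the mark, 10 were tested. Of these 2 were called lower and 0 higher, against 14.1% and 6.42% of all genes tested. At an unadjusted limma p-value under 0.05, 4 were lower and 1 higher, against 24.3% and 15.8% of all genes. The median log2 fold change of the 10 was -0.36. Kdm3b fell from 7.85 and 9.46 TPM to 1.81 and 2.83 TPM (log2 fold change -1.55 with a standard error of 0.34, limma adjusted p = 0.0305), and 25.7% of its 31-base words occur in other genes. Jmjd1c fell from 12.9 and 13.6 TPM to 4.26 and 4.87 TPM (log2 fold change -1.36 with a standard error of 0.30, limma adjusted p = 0.0309). Kdm3b and Jmjd1c belong to the KDM3 family. Kdm3a, of the same family, was at 4.32 and 6.06 TPM in control embryos against 1.87 and 2.26 TPM in DMSO-treated embryos without passing the threshold (limma adjusted p = 0.0784). H3K9 methylation itself was not measured in these libraries.

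Of 13 HP1 partners and other heterochromatin proteins, all tested, 0 were called by limma, against 20.5% of all genes tested. An unadjusted p-value under 0.05 was reached by 1 of them, in the lower direction, against 40.2% of all genes in either direction. The median log2 fold change of the 13 was -0.25. Dppa3 (Stella), a maternal factor that binds H3K9 dimethylated chromatin, had the highest level of this list, with 11639 and 15346 TPM in control embryos against 10828 and 15216 TPM in DMSO-treated embryos. In both groups library 2 was the higher, and the groups overlapped. The log2 fold change was -0.06 (limma adjusted p = 0.895) and -0.70 with quantile normalization (limma adjusted p = 0.126). Its sign turned without control 2 (0.14) and without DMSO 1 (0.19). Of its 31-base words 29.6% occur in other genes. Rif1, a replication timing factor found at heterochromatin, was at 362 and 425 TPM against 337 and 304 TPM (log2 fold change -0.29, limma adjusted p = 0.392), and its log2 fold change was -0.059 with quantile normalization and -0.18 without control 2.

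**Figure D4:**
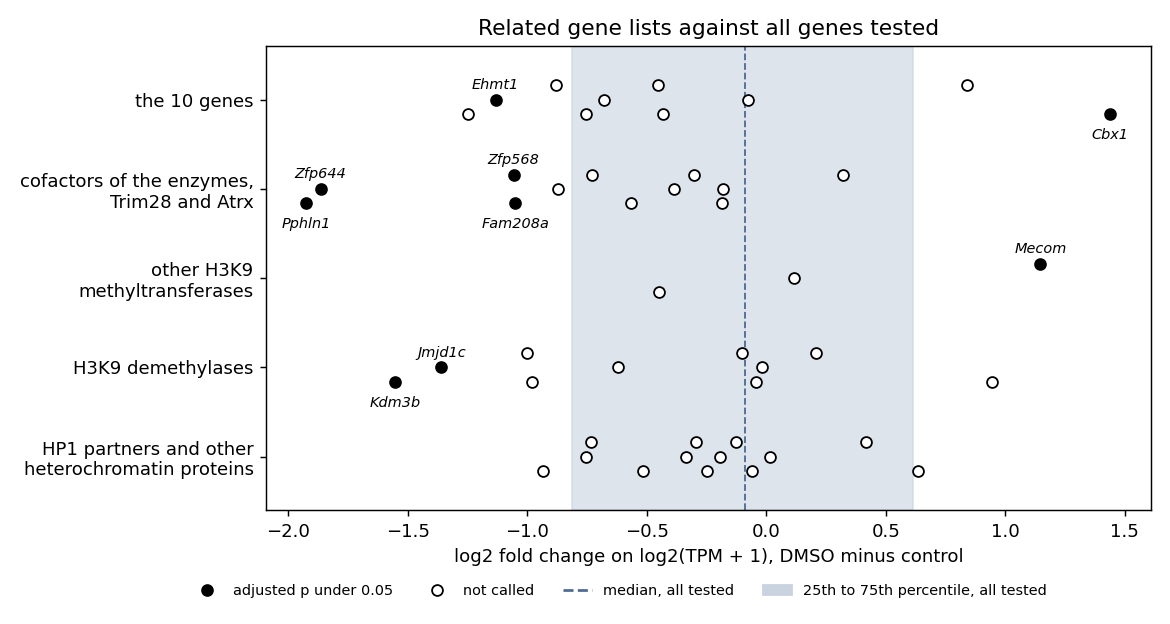
log2 fold change on log2(TPM + 1), DMSO minus control, of the 10 genes and of the 4 related lists. Each point is a gene tested, filled and named where limma called it, and the band spans the 25th to 75th percentile of all genes tested (-0.81 to 0.62). Ehmt1, all 4 called cofactors and both called demethylases lie to the left of the band, and Cbx1 and Mecom to the right. Calls favour large fold changes, so their place outside the band is no separate result.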

How the data were processed

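Embryo RNA was amplified with a SMARTer low-input kit and sequenced on an Illumina HiSeq. The labels give both single-end and paired-end reads of 50 bases. The authors quantified transcripts with kallisto on Ensembl transcripts of GRCm38 (mm10), summed them per gene with tximport, and deposited one table of TPM values for 30049 genes. The versions of both tools are not given in the sources used here. The study's own test, DESeq2, needs counts and was not run on TPM. All 4 columns were used, and groups were taken from the sample titles. GENCODE M21 named 29589 genes.

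The limma fit (version 3.58.1, R 4.3.3) took log2(TPM + 1) of the 12038 genes whose mean reached 1 TPM, compared the groups without a block, let eBayes follow a trend of variance with level, and adjusted p-values by Benjamini-Hochberg (threshold 0.05). The step was tested on simulated data. Ratios were compared by exact permutation in scipy 1.17.1. The genes named are the 10, each related gene called and, where a list had 0 or 1 calls, its most abundant genes tested. A few others with a known link to the 10 genes were named after their values were seen. The members and lists were chosen with earlier results of these data known. Protein sequences were not used here. Alternatives were a pseudocount of 0.1, no filter, a mean of at least 5 TPM, no trend, median-ratio scaling, quantile normalization, a replicate block, and leaving out each library.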

Additional observations from a re-analysis of the deposited data

How the results depend on the processing

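Of the 10 genes, 9 kept the direction of their log2 fold change under all 11 alternatives. Suv39h1 turned to 0.21 with quantile normalization, to 0.19 without control replicate 1 and to 0.09 without DMSO replicate 2 (-0.34 to 0.19 without any one library). Of the related genes named, Prdm2 turned to -0.07 without control replicate 2 and to -0.082 without DMSO replicate 1 (-0.082 to 0.31), Dppa3 to 0.14 and 0.19 in the same fits (-0.30 to 0.19), and Daxx to 0.049 with quantile normalization and to 0.19 without control replicate 1 (-0.56 to 0.19). Quantile normalization moved these named genes by over 1.5 times without turning them: Cbx3 from -0.76 to -0.48, Setdb1 from -0.43 to -0.24, Atrx from -0.45 to -0.17, Setdb2 from -0.45 to -0.15, Rif1 from -0.29 to -0.059, Mphosph8 from -0.30 to -0.0087, Dppa3 from -0.06 to -0.70 and Prdm2 from 0.12 to 0.26. Without any one library, log2 fold changes ran from -1.08 to -0.058 for Wiz, -0.47 to -0.14 for Mphosph8, -0.70 to -0.21 for Atrx and -0.41 to -0.18 for Rif1. The counts moved more. All genes called were 2470, 0 with no filter on low values (5368 had an unadjusted p-value under 0.05), and 3 to 2091 without any one library. Of the 10 genes 1 was called lower, and 0 were with a pseudocount of 0.1, no filter, no trend, median-ratio scaling or quantile normalization, 3 with the filter at 5 TPM (Ehmt1, Ehmt2 and Cbx5, beside 22.5% of all genes tested there), and 0 to 1 without any one library (Ehmt2 without DMSO replicate 2). For higher calls, 1 in the fit reported, the counts were 0 with no filter, 2 with quantile normalization (Cbx1 and Suv39h2, beside 8.94% of all genes) and 0 to 1 without any one library. Of the related genes 6 were called lower and 1 higher. Lower calls were 0 with no filter and 0 to 3 without any one library, and higher calls were 0 with a pseudocount of 0.1, no filter or no trend and 0 without any one library. These fits keep a single library in one group, which is assumed to vary like the other group, and have 1 residual degree of freedom. The median log2 fold change of the 10 genes was -0.57, -0.52 with median-ratio scaling, -0.35 with quantile normalization and -0.64 to -0.55 without any one library. The log2 ratio differences without any one library ran from -1.21 to -0.63 for Suv39h1 to Suv39h2, -0.10 to 0.33 for Ehmt1 to Ehmt2, 0.01 to 0.24 for Cbx3 to Cbx5, and 2.03 to 2.61 for Cbx1 to Cbx5. The sum of Cbx3 and its pseudogene was chosen after the data had been seen.

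The groups share replicate numbers, and nothing in the labels says what a number stands for. Over the genes tested, which are not independent, libraries with the same number deviated together from the mean of their group with r = 0.35. The fit with the replicate block has 1 residual degree of freedom per gene, against 2 in the fit reported. With the block 5132 genes were called, 42.6% of those tested, 24.8% lower and 17.9% higher. Of the 10 genes 5 were called lower with it (limma adjusted p = 0.00889 for Ehmt1, 0.00851 for Ehmt2, 0.0157 for Trim28, 0.0178 for Cbx3 and 0.0193 for Cbx5) and 2 higher (0.00442 for Cbx1 and 0.0306 for Suv39h2), and of the 38 related genes 10 were called lower.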
